A study of Mus musculus with 24 samples.

Results

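The genes described here encode zinc-dependent histone deacetylases, the enzymes that take acetyl groups off lysines of histones and other proteins. They were taken by symbol from a list of 10 genes (Hdac1, Hdac2, Hdac3, Hdac4, Hdac5, Hdac6, Hdac7, Hdac8, Hdac9 and Hdac11), and all 10 were found among the 55254 genes of the count tables and passed the filter on low counts in every fit. One more zinc-dependent gene of this kind lies outside the list and was not analysed here. RNA came from nuclei of the hippocampus of male C57BL/6N mice aged 6 months, sorted by flow cytometry for the neuronal nuclear protein NeuN into NeuN+ (mostly neuronal) and NeuN- (mostly non-neuronal) nuclei. Mice were WT, lacked 1 DNA glycosylase (Mutyh-/- or Ogg1-/-) or lacked both after a cross of the single knockouts (DKO), and each of the 8 groups had 3 libraries. Nuclei of several animals of a genotype were pooled before sequencing. Total counts ran from 56563586 to 96192142 per library, and a member's count in 1 library ran from 737 to 33886.

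Histone deacetylases fall into classes by sequence. Class I (Hdac1, Hdac2, Hdac3 and Hdac8) holds the nuclear enzymes that work mostly within corepressor complexes: Hdac1 and Hdac2 are the catalytic subunits of the Sin3, NuRD and CoREST complexes, Hdac3 is that of the NCoR and SMRT complex, and Hdac8 acts outside them, with the cohesin subunit SMC3 as its best known substrate. Class IIa enzymes (Hdac4, Hdac5, Hdac7 and Hdac9) have little catalytic activity of their own, bind MEF2 transcription factors, and leave the nucleus when calcium-dependent kinases create docking sites for 14-3-3 proteins. Hdac6 of class IIb deacetylates tubulin in the cytoplasm, and Hdac11 is the sole class IV member. In the brain, Hdac2 and Hdac3 are known as restraints on memory formation, and Hdac4 is needed for it.

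The labels were checked first. Levels in CPM are counts scaled to the library's total over the genes tested, times its TMM scaling factor. Mutyh, which excises adenine opposite oxidised guanine, was counted at 1.15, 1.28 and 1.27 CPM in NeuN+ WT libraries and at 11.4, 11.5 and 9.88 CPM in those labelled Mutyh-/-. The gene thus had more and not fewer counts in the libraries labelled as lacking it, and so did the DKO libraries, at 8.47, 9.20 and 12.2 CPM. Ogg1, which excises the oxidised guanine itself, did not separate the genotypes, with 3.66, 3.50 and 3.21 CPM in NeuN+ Ogg1-/- libraries and 2.77, 3.77 and 3.34 CPM in WT. Counts over a whole gene do not show whether the deleted part is missing, so the groups are named throughout as the libraries are labelled. The sort was visible in the markers: 8 neuronal genes summed to between 5384 and 6186 CPM in NeuN+ and between 579 and 719 CPM in NeuN- libraries, whereas 5 oligodendrocyte genes summed to between 117 and 139.5 CPM and between 4501 and 6765 CPM.

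The first comparison was that of the cell types, since NeuN+ and NeuN- nuclei show how the enzymes divide between neurons and the other cells of the tissue. Of the 10 members, 5 were higher in NeuN+ nuclei of WT mice (Hdac2, Hdac3, Hdac4, Hdac6 and Hdac9) and 5 were higher in NeuN- nuclei (Hdac1, Hdac5, Hdac7, Hdac8 and Hdac11), by edgeR's quasi-likelihood test with a Benjamini-Hochberg adjusted p under 0.05. Among all 33523 genes tested, 72.4% passed the same test, with 36.1% higher and 36.3% lower in NeuN+. The median log2 difference of the members was -0.02, beside -0.01 over all genes, and the median size of the difference was 0.49 for the members and 0.84 over all genes. With the limit of 1 on the log2 scale, 2 members passed, Hdac8 and Hdac9, where 42.9% of all genes did. In bulk nuclei, more cells of a type and more RNA per nucleus cannot be told apart, and since the labels give NeuN+ and NeuN- libraries different sequencing lanes, an effect of the lane cannot be told apart from one of the sort.

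**Figure D1:**
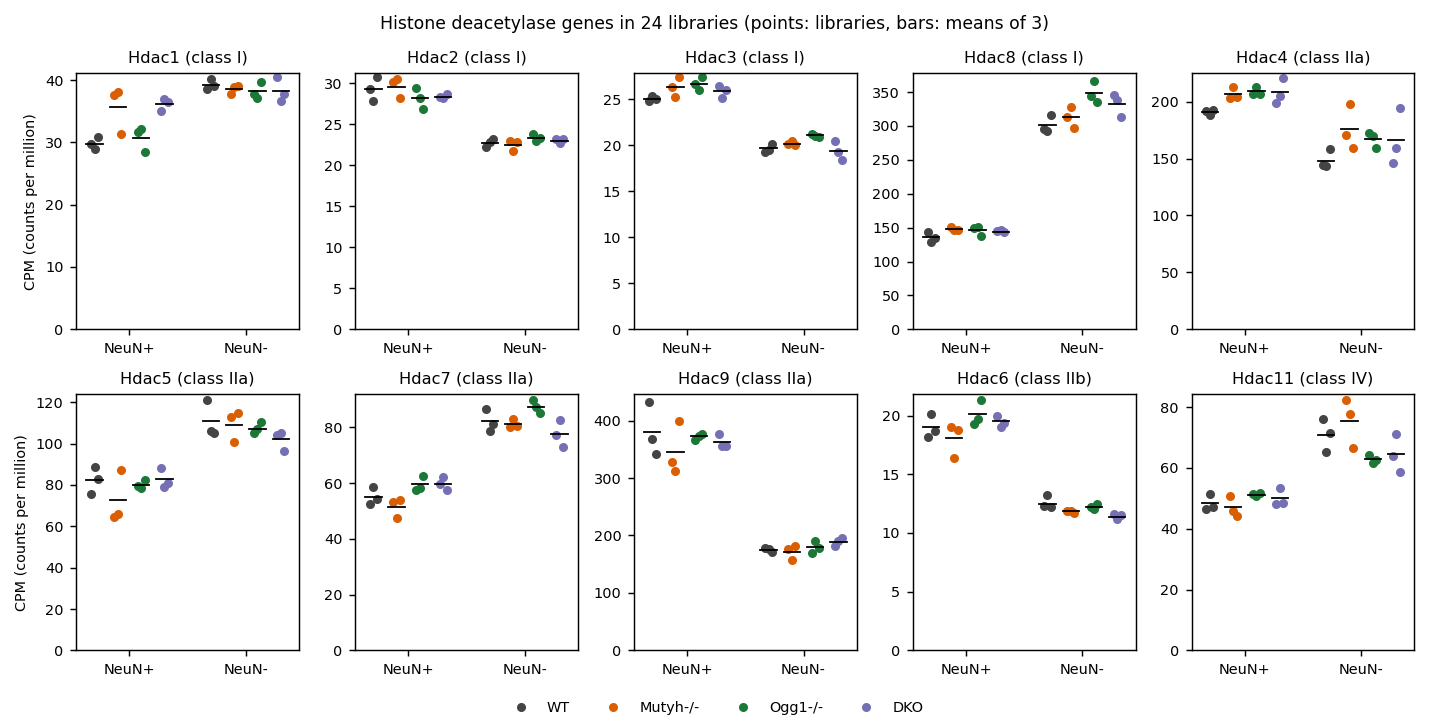
Level of each histone deacetylase gene in CPM (vertical axis, from 0) in the 24 libraries, NeuN+ on the left and NeuN- on the right of each panel, with a point for each library, colours for genotypes and a bar for the mean of 3 libraries. The NeuN+ and NeuN- points of 8 genes do not overlap, while those of Hdac1 and Hdac4 do.

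Hdac8 had the largest difference towards NeuN-. Its WT libraries held 144, 129 and 134 CPM in NeuN+ and 295, 293 and 316 CPM in NeuN-, and the ranges over all genotypes, 129 to 150.5 and 293 to 366 CPM, lay far apart. The log2 difference, NeuN+ minus NeuN-, was -1.15 ± 0.05 (SE; adjusted p = 8.81e-15) in WT, -1.08 in Mutyh-/-, -1.26 in Ogg1-/- and -1.20 in DKO. Hdac8 lies on the X chromosome (GRCm38, chrX:102284639-102505359, minus strand), and 36.6% of its span is shared with Gm14858, a non-coding transcript on the opposite strand. Gm14858 differed in the same direction, by -1.12 ± 0.06 (adjusted p = 5.01e-14) in WT, with 68.3, 61.7 and 64.3 CPM in NeuN+ and 137, 138 and 148 CPM in NeuN-. Per kb of gene span the pair had nearly the same level, 0.573 and 0.614 CPM in NeuN+ and 1.25 and 1.37 CPM in NeuN- for Gm14858 and Hdac8. Reads of the shared stretch cannot be told apart in these counts.

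The other class I genes differed less. Hdac2 was counted at 29.3, 27.8 and 30.8 CPM in WT NeuN+ and at 22.2, 22.8 and 23.2 CPM in WT NeuN- libraries, a log2 difference of 0.37 ± 0.05 (adjusted p = 4.32e-07). Hdac3, on chromosome 18, had 24.8, 25.4 and 25.1 CPM against 19.3, 19.5 and 20.2 CPM, a difference of 0.35 ± 0.05 (adjusted p = 5.05e-07). Both were higher in NeuN+ in every genotype, with differences between 0.27 and 0.41, and their NeuN+ and NeuN- libraries did not overlap. Hdac1, the close relative of Hdac2, went the other way, with 29.7, 28.9 and 30.9 CPM in NeuN+ and 38.6, 40.2 and 39.0 CPM in NeuN- libraries of WT mice (-0.40 ± 0.06, adjusted p = 7.52e-06). This made Hdac1 and Hdac2 nearly equal in WT NeuN+ counts, at ratios of 1.01, 1.04 and 1.00, and unequal in NeuN-, at 1.74, 1.76 and 1.68. These ratios are of counts per gene, since both genes have spans of similar length, 26.6 and 27.3 kb.

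Class IIa was split. Hdac9, the longest member at 869.5 kb (chr12:34047580-34917095), had 432, 368 and 341 CPM in WT NeuN+ and 178, 176 and 172 CPM in WT NeuN- libraries. The difference was 1.12 ± 0.08 (adjusted p = 3.06e-11) in WT and stayed between 0.94 and 1.05 in the knockouts, and it was below the limit of 1 only in DKO. Hdac4 was also higher in NeuN+, with 192, 188 and 193 CPM against 144, 143 and 158 CPM in WT (0.37 ± 0.08, adjusted p = 0.000358), but its NeuN- libraries were spread over 143 to 198 CPM and reached into the NeuN+ range of 188 to 221 CPM. In Mutyh-/- its difference was 0.23 (adjusted p = 0.0139), and without the third Mutyh-/- NeuN- library it was 0.16 (adjusted p = 0.0951).

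Hdac5 and Hdac7 were both higher in NeuN-. Hdac5 had 75.6, 88.8 and 82.9 CPM in WT NeuN+ and 121, 106 and 105 CPM in WT NeuN- libraries (-0.43 ± 0.09, adjusted p = 0.000211). Hdac7, known from developing T cells and vessel walls, had 52.4, 58.5 and 54.3 CPM against 86.6, 78.7 and 81.3 CPM (-0.58 ± 0.06, adjusted p = 8.86e-09). Neither gene had a NeuN+ library as high as its lowest NeuN- library in any genotype. Within the class, Hdac5 thus stood at a ratio of 0.43 to Hdac4 by counts in WT NeuN+ and of 0.75 in WT NeuN-, a description of counts and not of levels, since the span of Hdac4 is several times longer.

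Hdac6 and Hdac11 took opposite sides. Hdac6 was the member with the fewest counts, at 18.2, 20.1 and 18.7 CPM in WT NeuN+ and 12.3, 13.2 and 12.2 CPM in WT NeuN- libraries. It was higher in NeuN+ by 0.60 ± 0.06 (adjusted p = 4.77e-09) in WT, by 0.61 in Mutyh-/-, by 0.72 in Ogg1-/- and by 0.77 in DKO. Hdac11 was higher in NeuN-, with 76.0, 65.1 and 71.4 CPM against 46.5, 51.5 and 47.2 CPM in WT (-0.55 ± 0.08, adjusted p = 1.64e-06), and its difference was -0.69 in Mutyh-/-, -0.30 in Ogg1-/- and -0.37 in DKO. Over all genotypes, the 12 NeuN+ and 12 NeuN- libraries did not overlap for 8 of the 10 members, and 54.6% of all genes tested showed the same.

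The comparisons of the cell types in the 4 genotypes share no libraries. Hdac2, Hdac3, Hdac4, Hdac6 and Hdac9 were higher in NeuN+ in all 4, and Hdac5, Hdac7, Hdac8 and Hdac11 in NeuN- in all 4, at an adjusted p under 0.05. In Mutyh-/-, Ogg1-/- and DKO, 9, 10 and 9 members passed, where 73%, 73.3% and 73.9% of all genes did, and 2, 2 and 1 were past the limit of 1, where 43.9%, 43.9% and 44.4% of all genes were. The gene that did not pass in 2 genotypes was Hdac1, at -0.11 (95% interval -0.24 to 0.02, adjusted p = 0.115) in Mutyh-/- and -0.08 (-0.21 to 0.05, adjusted p = 0.247) in DKO. In Mutyh-/- this turned on the setting. With at least 10 counts in every library, Hdac1 passed at -0.137 (adjusted p = 0.0496). Without the second Mutyh-/- NeuN+ library it passed at -0.161 (adjusted p = 0.0449).

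**Figure D2:**
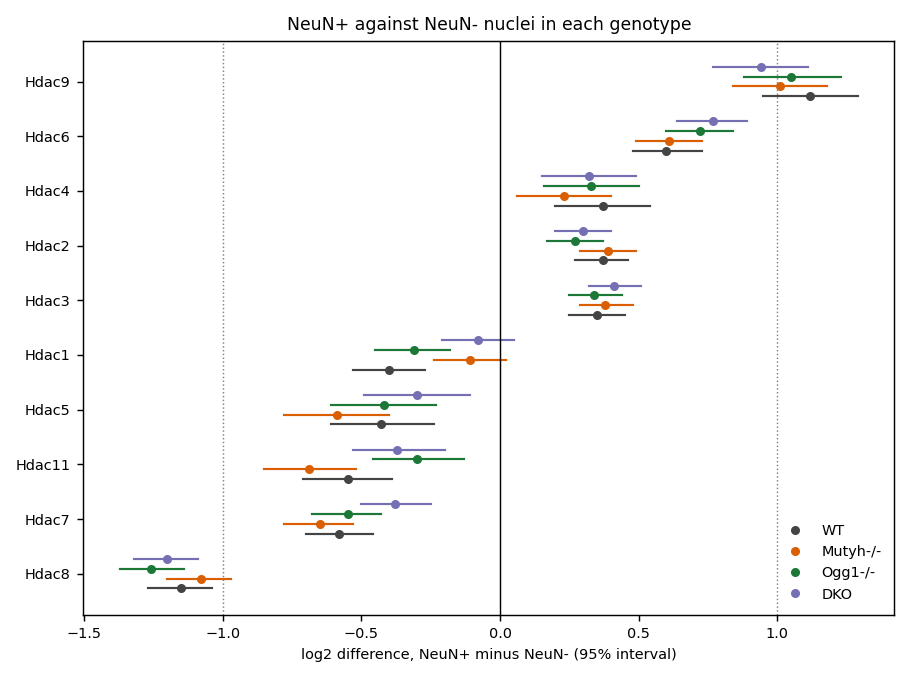
Log2 difference between NeuN+ and NeuN- nuclei (horizontal axis, positive when higher in NeuN+) of each member in the 4 genotypes, with points for the fitted difference, lines for its 95% interval and dotted lines at -1 and 1. Hdac9 lies furthest to the right and Hdac8 furthest to the left in every genotype, and the intervals of Hdac1 cross 0 in Mutyh-/- and DKO.

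Promoters of 3 members are shown to set their letters beside the differences between the cell types, with no test. The RefSeq table of promoters (GRCm38.p6) had an entry for 8 members and none for Hdac1 and Hdac3, and for 5 of the 8 the RefSeq start lay within 6 bases of the outermost annotated start of the gene (Hdac2, Hdac5, Hdac6, Hdac7 and Hdac9). The 250 bases before the start are given for Hdac9, the gene furthest towards NeuN+, for Hdac6, the next, and for Hdac2, a gene of modest difference. Capitals mark matches, on either strand, to the GC box GGGCGG, the cyclic AMP response element TGACGTCA, the CCAAT box, the TATA box TATAAA and the E-box CACGTG, and no marked matches overlap.
Hdac9 (chr12:34917096-34917345, minus strand): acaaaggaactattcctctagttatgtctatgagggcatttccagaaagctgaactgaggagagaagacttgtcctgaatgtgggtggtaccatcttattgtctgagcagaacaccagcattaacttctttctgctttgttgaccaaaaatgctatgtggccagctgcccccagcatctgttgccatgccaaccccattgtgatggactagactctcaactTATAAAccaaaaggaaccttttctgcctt
Hdac6 (chrX:7947890-7948139, minus strand): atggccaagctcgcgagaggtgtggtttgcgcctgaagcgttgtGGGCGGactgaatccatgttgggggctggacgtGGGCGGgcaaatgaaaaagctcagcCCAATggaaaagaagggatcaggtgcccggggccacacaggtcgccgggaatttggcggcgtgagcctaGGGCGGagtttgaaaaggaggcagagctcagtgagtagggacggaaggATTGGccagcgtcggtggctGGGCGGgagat
Hdac2 (chr10:36974294-36974543, plus strand): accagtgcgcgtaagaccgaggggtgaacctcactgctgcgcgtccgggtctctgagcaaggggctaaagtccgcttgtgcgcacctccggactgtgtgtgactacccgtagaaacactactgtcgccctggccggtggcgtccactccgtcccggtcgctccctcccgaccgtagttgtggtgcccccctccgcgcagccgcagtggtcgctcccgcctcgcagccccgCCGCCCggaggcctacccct

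The promoters listed had 2 starts for Hdac9 and 4 for Hdac7, and only 1 window of each is described. The Hdac9 window held no CpG at all and was 44.4% GC, and its TATA box began 29 bases before the start. The Hdac6 window held 17 CpG, 4 GC boxes and 2 CCAAT boxes at 61.2% GC, and the Hdac2 window held 27 CpG and 1 GC box at 68.8% GC. Hdac5 had 12 CpG, 1 GC box and 2 CCAAT boxes, and Hdac7 had 6 CpG and none of the motifs. Among 32851 promoters of the table, the median was 6 CpG and 52.4% GC, and the TATA box was found in 12.4%, the GC box in 32.7% and the CCAAT box in 33.8%. The cyclic AMP response element and the E-box were found in 1.55% and 6.02% of these promoters and in none of the 5 windows. A match describes letters in the window and not a bound site.

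Levels of different genes were compared per length. Over the union of each gene's exons, WT NeuN+ nuclei had most Hdac8 (28.0 ± 1.61 CPM per kb, SD, n = 3) and Hdac9 (25.9 ± 3.17), whose libraries overlapped, then Hdac11 (12.6 ± 0.71) and Hdac4 (12.1 ± 0.17), and least Hdac6 (3.27 ± 0.17). In WT NeuN-, Hdac8 led at 62.3 ± 2.68 CPM per kb of exons, followed by Hdac11 at 18.4 ± 1.43, and Hdac6 was again lowest at 2.15 ± 0.09. However, these are nuclear libraries, and the counts behaved as if reads had been counted over whole genes, introns included: genes nested in a host gene on the opposite strand had a count per base of their span close to the host's (median log2 ratio -0.05, 556 genes), and those on the same strand had a lower one (median -0.31, 59 genes). Per kb of gene span the order was another, led in WT NeuN+ by Hdac11 (2.68 ± 0.15 CPM per kb) and Hdac5 (2.31 ± 0.19), with Hdac3 (1.31 ± 0.02) after them and the long genes Hdac4 (0.716 ± 0.01), Hdac8 (0.614 ± 0.04) and Hdac9 (0.437 ± 0.05) last. Hdac1, Hdac6, Hdac2 and Hdac7 lay between 1.06 and 1.12 CPM per kb of span there, and each overlapped the next in its libraries. In WT NeuN-, Hdac11 (3.93 ± 0.31) and Hdac5 (3.10 ± 0.24) led again and Hdac9 (0.202 ± 0.004) was last, and no neighbours in that order overlapped. Which member has the most RNA therefore turned on the length used, while the comparisons of 1 gene between groups did not.

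**Figure D3:**
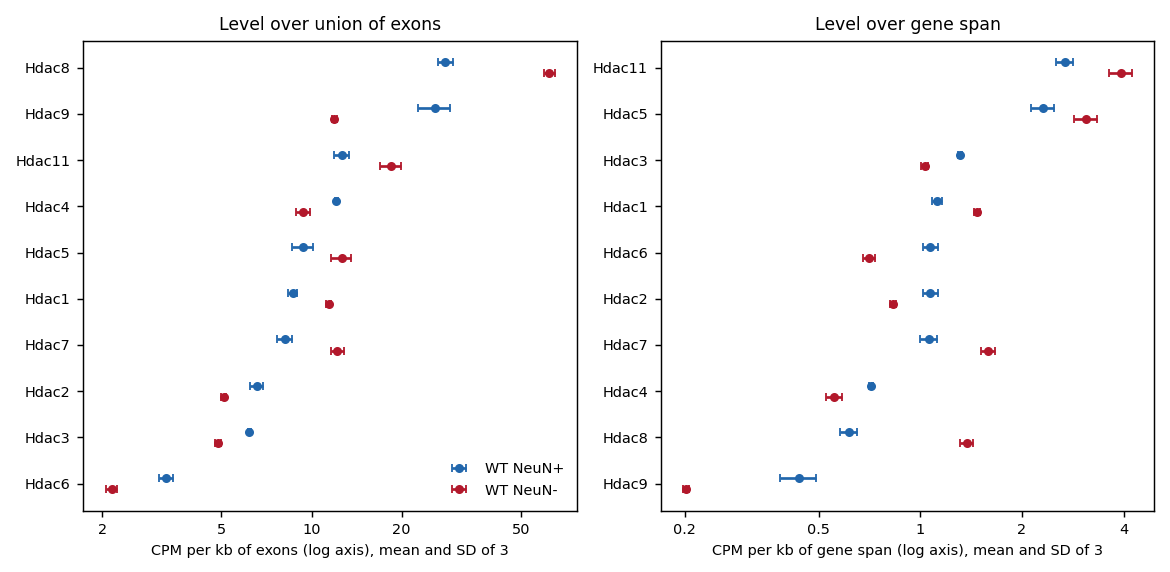
Level of each member in WT nuclei per kb of exons (left) and per kb of gene span (right), on log axes, as mean and SD of 3 libraries, with NeuN+ in blue and NeuN- in red. Genes are ordered by their NeuN+ level, and Hdac8 and Hdac9 are the top genes on the left and the bottom genes on the right.

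Next, the knockouts were compared with WT within each cell type, to ask whether loss of the glycosylases changes the RNA of these enzymes. No member was differentially expressed in any of the 6 comparisons, either at an adjusted p under 0.05 with an absolute log2 fold change above 0.5 or at an adjusted p under 0.05 alone. The share of all genes past both limits was 0.428%, 0.574% and 0.302% in Mutyh-/-, Ogg1-/- and DKO of NeuN+, and 0.273%, 0.229% and 0.116% in NeuN-, a background at which a count of 0 among 10 genes says little. Without the limit on fold change, the shares were 0.641%, 1.1% and 0.494% in NeuN+ and 0.32%, 0.342% and 0.179% in NeuN-. At an unadjusted p under 0.05, 3, 1 and 2 members passed in NeuN+, where 18.7%, 12.3% and 13.5% of all genes did, and 1, 1 and 2 in NeuN-, where 13.7%, 11.8% and 12.4% did. These comparisons share the WT libraries of a cell type.

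What the data do give is a bound. The fitted log2 fold changes of the 10 members lay between -0.18 and 0.26 in Mutyh-/-, -0.07 and 0.11 in Ogg1-/-, and -0.08 and 0.27 in DKO of NeuN+, and between -0.18 and 0.24 over the genotypes of NeuN-. No 95% interval of any member reached 0.5 in either direction, the furthest bounds being -0.38 (Hdac5, Mutyh-/- NeuN+) and 0.46 (Hdac4, Mutyh-/- NeuN-). These intervals are per gene and were not widened for the number of genes. The members' median was -0.01, 0.06 and 0.03 in NeuN+ and -0.02, 0.03 and -0.03 in NeuN-, beside medians between -0.01 and 0.01 over all genes.

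**Figure D4:**
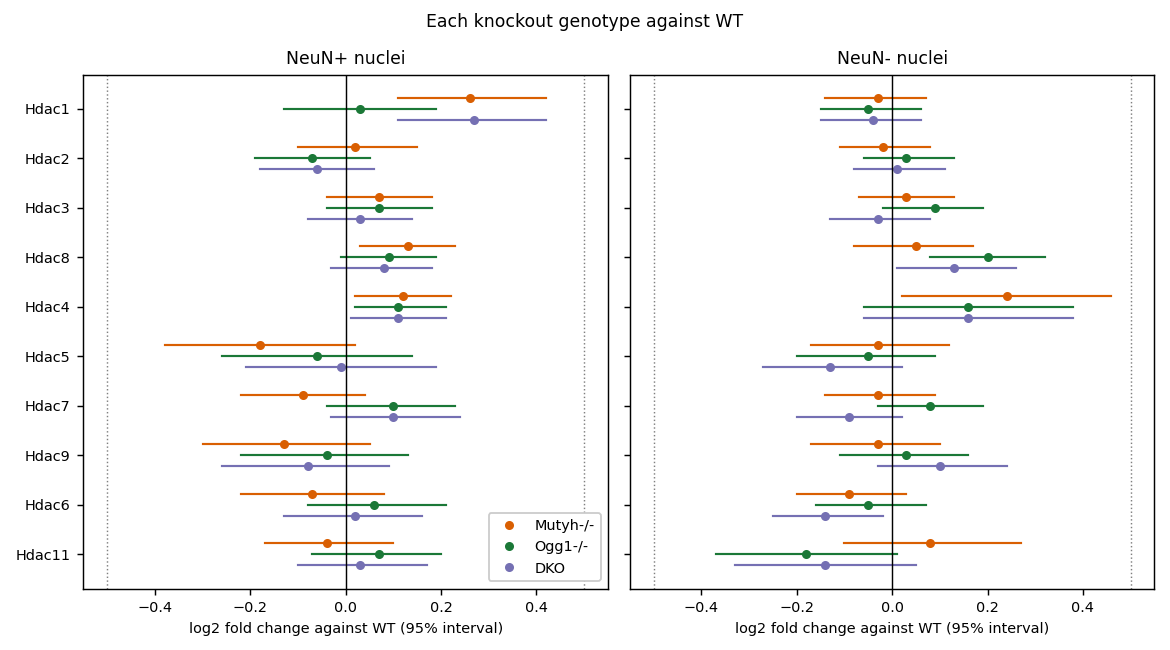
Log2 fold change of each member in Mutyh-/-, Ogg1-/- and DKO against WT (horizontal axis, points) with 95% intervals (lines), in NeuN+ nuclei on the left and NeuN- nuclei on the right, with dotted lines at -0.5 and 0.5. Every interval lies between the dotted lines, and in NeuN+ those of Hdac1 in Mutyh-/- and DKO, of Hdac8 in Mutyh-/- and of Hdac4 in all 3 knockouts lie above 0.

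Hdac1 was the member with the largest fold change in NeuN+ nuclei, in the libraries labelled Mutyh-/- and DKO, which had more Mutyh counts than WT. NeuN+ libraries held 29.7, 28.9 and 30.9 CPM in WT, 37.6, 38.1 and 31.4 CPM in Mutyh-/-, 31.7, 32.2 and 28.4 CPM in Ogg1-/- and 35.0, 37.0 and 36.5 CPM in DKO. All 6 libraries of Mutyh-/- and DKO were above the 3 WT libraries, and the third Mutyh-/- library was only just so. The fold change was 0.26 ± 0.07 in Mutyh-/- (95% interval 0.11 to 0.42, adjusted p = 0.0968), 0.27 ± 0.07 in DKO (0.11 to 0.42, adjusted p = 0.132) and 0.03 ± 0.07 in Ogg1-/- (-0.13 to 0.19, adjusted p = 0.929). In NeuN- nuclei the groups overlapped, with 38.6, 40.2 and 39.0 CPM in WT and between 36.7 and 40.5 CPM in the knockouts, and the fold changes were between -0.05 and -0.03.

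The call for Hdac1 turned on the method and on 1 library. DESeq2 gave adjusted p = 0.0327 in Mutyh-/- and 0.0342 in DKO, edgeR without the filter on low counts gave 0.0276 and 0.0424, and the likelihood ratio test gave 0.0487 in Mutyh-/-, with fold changes between 0.26 and 0.28 in each case. Without the third Mutyh-/- library the fold change was 0.36 (adjusted p = 0.00662), and without each of the others in turn the adjusted p in Mutyh-/- reached 0.301. That library moved other genes too: 837 genes were differentially expressed in Mutyh-/- NeuN+ without it, 129 with all libraries, and 62 to 91 without any 1 of the others. A comparison added after these values were seen set the 6 libraries of Mutyh-/- and DKO against the 6 of WT and Ogg1-/-, and Hdac1 passed there at 0.25 ± 0.05 (0.14 to 0.36, adjusted p = 0.0484), as did 0.514% of all genes. It is no independent support, since it reuses the libraries of the comparisons above and was chosen after their values were seen. The call also turned on the setting. Blocking on replicate number gave an adjusted p of 0.0675, and with 1 library left out the adjusted p ranged from 0.00191 to 0.158. DKO against Ogg1-/-, also added after the values were seen, shares no library with Mutyh-/- against WT and gave 0.24 ± 0.07 (0.08 to 0.40, adjusted p = 0.702), with 0.252% of all genes past an adjusted p under 0.05.

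Hdac1 was also set over Hdac2 within each library, which reuses the Hdac1 counts and is no independent support. Hdac2 itself had fold changes of 0.02, -0.07 and -0.06 in Mutyh-/-, Ogg1-/- and DKO of NeuN+, which also move the ratio. The ratio of Hdac1 to Hdac2 counts in NeuN+ was 1.01, 1.04 and 1.00 in WT, 1.25, 1.25 and 1.11 in Mutyh-/-, 1.07, 1.14 and 1.05 in Ogg1-/- and 1.24, 1.31 and 1.27 in DKO. The ratios of the 4 genotypes were between 1.59 and 1.78 in NeuN-. Hdac1 lies on chromosome 4 (chr4:129516104-129542713), 12.7 Mb from Mutyh. None of the 55 other genes tested within 1 Mb of Hdac1 passed an adjusted p under 0.05 in Mutyh-/- or DKO of NeuN+. Of all genes, only 0.641% and 0.494% passed there, so that none among 55 says little. The median fold changes of the 55 genes were -0.03 and -0.01. Whether the distance to Mutyh has a part in the values of Hdac1 was not tested.

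**Figure D5:**
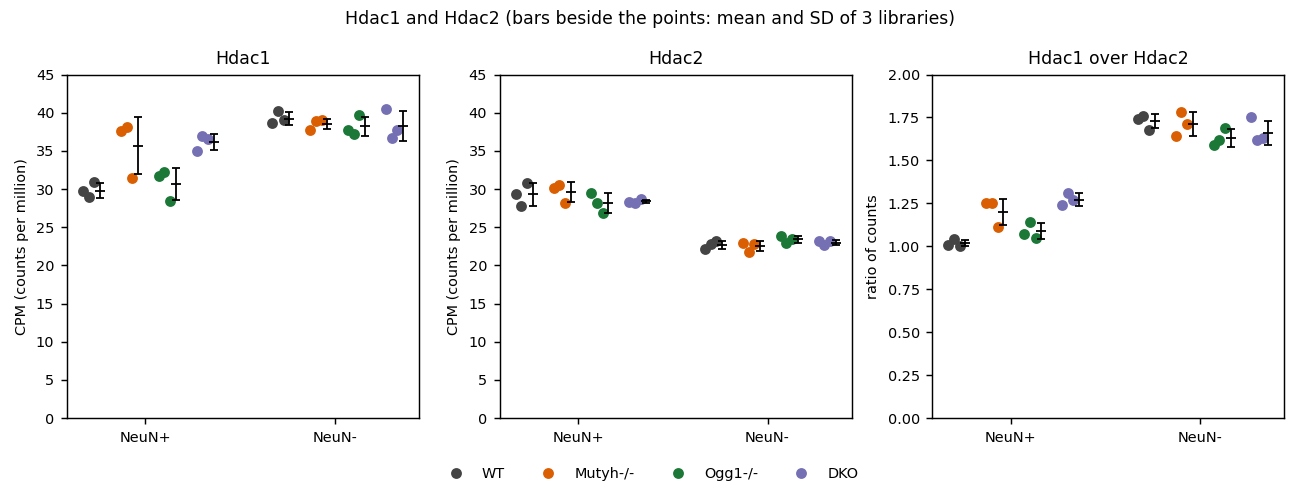
Hdac1 and Hdac2 in CPM and the ratio of their counts (vertical axes, from 0) in the 24 libraries by cell type and genotype, with a point for each library and, beside the points, the mean and SD of 3 libraries. In NeuN+ the ratio is 1.00 to 1.04 in WT and 1.24 to 1.31 in DKO, those of Ogg1-/- lie between 1.05 and 1.14, and those of Mutyh-/- between 1.11 and 1.25.

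Hdac8 in NeuN+ had 144, 129 and 134 CPM in WT and 150.4, 147 and 146 CPM in Mutyh-/-, without overlap, at a fold change of 0.13 ± 0.05 (0.03 to 0.23, adjusted p = 0.171). In NeuN- it had 295, 293 and 316 CPM in WT, 344, 366 and 335 CPM in Ogg1-/- and 345, 339 and 313 CPM in DKO, so that the Ogg1-/- libraries all lay above WT. The fold change in Ogg1-/- was 0.20 ± 0.06 (0.08 to 0.32, adjusted p = 0.196), and DESeq2 gave adjusted p = 0.0450. The overlapping Gm14858 had 137, 138 and 148 CPM in NeuN- WT and 159.7, 173 and 158 CPM in NeuN- Ogg1-/-. In NeuN+ it had 68.3, 61.7 and 64.3 CPM in WT and 76.3, 72.7 and 70.0 CPM in Mutyh-/-. The part of the shared reads in these values of Hdac8 was not tested. For Hdac2 and Hdac3, fold changes were between -0.07 and 0.09 in the 6 comparisons, and their intervals did not go beyond -0.19 and 0.19.

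Of class IIa, Hdac4 had 192, 188 and 193 CPM in NeuN+ WT and 199 to 221 CPM in the 9 knockout libraries. Every knockout library thus lay above WT, but the fold changes were only 0.12, 0.11 and 0.11 (adjusted p = 0.180, 0.312 and 0.325). The comparisons reuse the same WT libraries, and the share of all genes that separate in this way was not counted. In NeuN- its WT libraries had 144, 143 and 158 CPM, those of Mutyh-/- 171, 198 and 159 CPM and those of DKO 146, 159 and 194 CPM, and the fold change in Mutyh-/- was 0.24 ± 0.10 (0.02 to 0.46, adjusted p = 0.323). Hdac5 in NeuN+ was at 64.4 and 65.8 CPM in the first and second Mutyh-/- libraries and at 87.4 CPM in the third, against 75.6 to 88.8 CPM in WT. Its fold change was -0.18 (-0.38 to 0.02, adjusted p = 0.325), and without the third library it was -0.33 (adjusted p = 0.0168). Hdac9 followed the same libraries, at 328, 312 and 399 CPM, with a fold change of -0.13 (adjusted p = 0.426), and Hdac7 stayed between -0.09 and 0.10 over the 6 comparisons.

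Hdac6 and Hdac11 did not pass either. Hdac6 in NeuN- had 12.3, 13.2 and 12.2 CPM in WT and 11.6, 11.2 and 11.5 CPM in DKO, which do not overlap, with a fold change of -0.14 ± 0.05 (-0.25 to -0.02, adjusted p = 0.333). Hdac11 in NeuN- had 76.0, 65.1 and 71.4 CPM in WT, 64.3, 61.7 and 62.6 CPM in Ogg1-/- and 63.9, 71.0 and 58.5 CPM in DKO, a log2 change of -0.18 (adjusted p = 0.452) in Ogg1-/- and of -0.14 (0.524) in DKO. The summed oligodendrocyte markers of NeuN- were at 5911 to 6645 CPM in WT, 5505 to 6765 CPM in Mutyh-/-, 5045 to 5667 CPM in Ogg1-/- and 4501 to 5578 CPM in DKO, and none of the 5 genes passed the test in any knockout. The 6 astrocyte markers were at 2789 to 3314 CPM in WT, 2853 to 3745 CPM in Mutyh-/-, 3247 to 4112 CPM in Ogg1-/- and 3468 to 3628 CPM in DKO, and 1 of them passed, in Ogg1-/-. The 8 neuronal markers of NeuN- were at 642 to 719 CPM in WT and 637 to 666 CPM in Mutyh-/-. In Ogg1-/- they were at 599 to 669.8 CPM and in DKO at 579 to 648 CPM. Their fold changes lay between -0.40 and -0.02 in Mutyh-/-, -0.47 and 0.02 in Ogg1-/-, and -0.51 and -0.03 in DKO. The medians were -0.13, -0.26 and -0.30, and none passed. The part of these markers in the values of Hdac6, Hdac8 and Hdac11 was not tested. Without any test, the libraries of knockout and WT did not overlap for 3, 2 and 2 members in Mutyh-/-, Ogg1-/- and DKO of NeuN+ and for 2, 4 and 3 in NeuN-, where 21.6%, 20.1%, 17.5%, 19.2%, 19.4% and 16.8% of all genes did not.

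Whether a knockout acted differently in the 2 cell types was tested as the effect in NeuN+ minus the effect in NeuN-. No member passed, nor did more than 0.0209%, 0.0537% and 0.0567% of all genes in Mutyh-/-, Ogg1-/- and DKO. Hdac1 had the largest values, 0.28 ± 0.09 (0.10 to 0.47, adjusted p = 0.349) in Mutyh-/- and 0.32 ± 0.09 (0.13 to 0.50, adjusted p = 0.242) in DKO, where DESeq2 gave 0.34 (adjusted p = 0.0468). That Hdac1 passed between the cell types in WT and not in Mutyh-/- or DKO is therefore not shown to be a difference between genotypes by the quasi-likelihood test. At an unadjusted p under 0.05, 1, 1 and 2 members passed, beside 8.58%, 7.09% and 9.4% of all genes.

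The partners of these enzymes were taken from lists of 74 symbols, of which 73 were found in the tables and passed the filter: subunits of the Sin3, NuRD, CoREST, NCoR and SMRT, and MiDAC complexes, MEF2 factors, 14-3-3 proteins, sirtuins, histone acetyltransferases and BET readers. None of the 73 was past both limits in any comparison of a knockout with WT. At an adjusted p under 0.05 alone, 3 fell in Ogg1-/- of NeuN+, where 0.873% of all genes were lower, 1 fell in DKO of NeuN+ (0.412% of all genes) and 1 in Mutyh-/- of NeuN- (0.132%). The 3 are 14-3-3 genes, of 7 tested, and like the other genes named for these falls they were chosen after their values were seen. Ywhae had 127, 127 and 131 CPM in WT and 109, 104 and 96.0 CPM in Ogg1-/- (-0.33 ± 0.06, adjusted p = 0.0150), without overlap. Ywhaz fell by 0.33 (adjusted p = 0.0337) and Ywhah by 0.46 (adjusted p = 0.0340) on the log2 scale, and the median of the 7 was -0.30 in Ogg1-/-, -0.29 in DKO and -0.12 in Mutyh-/-. Ywhae was also the gene that fell in DKO, at 107, 103 and 98.1 CPM (-0.34 ± 0.06, adjusted p = 0.0204).

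The gene that fell in Mutyh-/- of NeuN- was Chd5, a neuronal remodeller subunit of NuRD. It went from 34.0, 31.8 and 33.6 CPM in WT to 25.2, 24.5 and 26.6 CPM (-0.39 ± 0.06, adjusted p = 0.0136). Chd5 was higher in NeuN+ than in NeuN- nuclei. The 8 neuronal markers summed to between 642 and 719 CPM in NeuN- libraries of WT and between 637 and 666 CPM in those of Mutyh-/-. The fold changes of these markers lay between -0.40 and -0.02, with a median of -0.13, and none passed the test. Their part in the fall of Chd5 was not tested.

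Between the cell types, 26 of the 73 partners were higher and 36 lower in WT NeuN+ at an adjusted p under 0.05, beside 36.1% and 36.3% of all genes. Past the limit of 1 were 6 higher and 8 lower, beside 42.9% of all genes in both directions together, and the median was -0.13, beside -0.01 over all genes. The 4 genes called higher with the smallest adjusted p were Chd5 (2.32 ± 0.06) and Chd3 (1.74 ± 0.07), remodellers of NuRD, Trerf1 (1.95 ± 0.06), a subunit of MiDAC, and Ywhaz (1.23 ± 0.06). The 4 called lower were the acetyltransferase Kat2b (-2.86 ± 0.12), the tubulin deacetylase Sirt2 (-1.83 ± 0.07), known from myelin, and the NuRD subunits Cdk2ap1 (-1.66 ± 0.07) and Gatad2a (-1.32 ± 0.05), all with adjusted p below that of Hdac8. Ywhaq replaced Gatad2a or Cdk2ap1 among the 4 lower genes in the knockouts, with values between -1.74 and -1.64. By complex, 3 of 11 NuRD subunits were higher and 6 lower, and of the 5 genes of the NCoR and SMRT complex 1 was higher and 3 were lower, read beside the same 36.1% and 36.3%.

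Genes whose pattern over the 24 libraries was most like a member's were found by Pearson's r of log2 CPM, as a description, since the 24 libraries fall into NeuN+ and NeuN- clusters that set most of r. They were Zeb1 (0.997) and Dtna (0.996) for Hdac8, Ano5 and Bbs5 (both 0.993) for Hdac9, Map3k9 (0.989) and Pck2 (0.987) for Hdac6, and Pdp1 (0.982) and Kdm7a (0.981) for Hdac2. For Hdac3 the genes were 4930578G10Rik (0.979) and Gm12394 (0.978), for Hdac7 Polg and Tmem94 (both 0.977), for Hdac11 Tex2 (0.967) and Srcin1 (0.962), and for Hdac5 Ppp2r2d (0.956) and Rassf3 (0.950). The lowest best values were those of Hdac4, with Katnal2 and Arl3 (both 0.947), and Hdac1, with Tnr (0.885) and Ezh1 (0.884). Hdac1 and Hdac4 are also the members whose NeuN+ and NeuN- libraries overlapped.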

How the data were processed

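RNA of sorted hippocampal nuclei was measured in 24 libraries. Per the submitters' processing notes and the methods, the authors aligned reads with HISAT2 2.1.0 to GRCm38 and counted them per gene with featureCounts, and the deposited values are raw counts for 55254 genes. Handling of strand, introns and overlapping genes in the counting is not given in the sources used here. Counts of nested genes were nearer to their hosts' per base of span than of exons, so levels per length are given per span (added after seeing the data) beside the union of exons (GENCODE vM21). The labels name replicates but not animals, and the methods differ on how many animals were pooled, so p-values measure the spread between these libraries.

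Counts were filtered with filterByExpr, scaled by TMM and tested with edgeR 4.0.16 (quasi-likelihood, Benjamini-Hochberg) in R 4.3.3, with 12 libraries of a cell type together (30132 and 31863 genes) or all 24 (33523 genes) for cell types and interactions. CPM use the TMM factors of all 24, which ran from 0.897 to 1.13. The sizes of differences between the cell types rest on this scaling. Fold changes are log2, ± is the SE of a fit or the SD of levels, and intervals are 95%. Calls needed adjusted p under 0.05, with log2 values beyond 0.5 either way for knockouts and beyond 1 for cell types. The scripts were tested on simulated counts. Alternatives included DESeq2 1.42.0. All 10 members are named, with Ogg1 and Mutyh, up to 4 called partner genes a direction, and the 2 protein-coding genes most like each member. Members and lists were chosen with earlier results of these data known.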

Additional observations from a re-analysis of the deposited data

How the results depend on the processing

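Leaving out the limit on fold change gave 10, 9, 10 and 9 members between the cell types in WT, Mutyh-/-, Ogg1-/- and DKO, in place of 2, 2, 2 and 1, and 1 in the added comparison of libraries labelled Mutyh-/- and DKO with the other 6 in NeuN+, in place of 0. With no low-count filter, and with at least 10 counts in every library, 1 member passed the limit of 1 in Mutyh-/-, and with a library left out 1 to 2 did. Of the 20 places in the orders of level per exon length in WT, 13 were the same with the longest transcript and 1 with the gene span, and 18 to 20 with a library left out. Direction turned in 4 of 1080 values of members without leaving out libraries: without the low-count filter, 0.00394 for Hdac5 in DKO of NeuN+, 0.00562 for Hdac4 in DKO against Ogg1-/- of NeuN+ and 0.000374 for Hdac3 in the Ogg1-/- effect between cell types, and with at least 10 counts 0.00314 for Hdac4 in DKO against Ogg1-/- of NeuN-. The cause was not tested. Without a library in turn, direction turned in 69 of 1320 values, none with a log2 value beyond 0.0834 in the full fit, over these log2 ranges. In Mutyh-/- against WT, NeuN+, Hdac2 -0.00565 to 0.065 and Hdac11 -0.1 to 0.0179. In Ogg1-/- against WT, NeuN+, Hdac1 -0.000561 to 0.078, Hdac5 -0.121 to 0.00042 and Hdac9 -0.112 to 0.0499. In DKO against WT, NeuN+, Hdac5 -0.0739 to 0.0565, Hdac9 -0.151 to 0.0107, Hdac6 -0.0185 to 0.0674 and Hdac11 -0.014 to 0.0901. In DKO against Ogg1-/-, NeuN+, Hdac2 -0.0164 to 0.0465, Hdac8 -0.0434 to 0.00551, Hdac4 -0.0497 to 0.026, Hdac5 -0.00239 to 0.0812, Hdac7 -0.0192 to 0.0509 and Hdac6 -0.0718 to 0.00327. In Mutyh-/- against WT, NeuN-, Hdac2 -0.0385 to 0.00268, Hdac5 -0.0614 to 0.0393, Hdac7 -0.0517 to 0.0106 and Hdac9 -0.0713 to 0.0241. In Ogg1-/- against WT, NeuN-, Hdac5 -0.0806 to 0.0109, Hdac9 -0.0187 to 0.0666 and Hdac6 -0.0663 to 0.00131. In DKO against WT, NeuN-, Hdac2 -0.00818 to 0.0236 and Hdac3 -0.0677 to 0.013. In DKO against Ogg1-/-, NeuN-, Hdac1 -0.035 to 0.0363, Hdac4 -0.135 to 0.0868 and Hdac11 -0.0383 to 0.0941. In Mutyh-/- and DKO against WT and Ogg1-/-, NeuN-, Hdac1 -0.0344 to 0.00153 and Hdac8 -0.0321 to 0.00789. In the effect of Mutyh-/- in NeuN+ minus effect in NeuN-, Hdac2 -0.0088 to 0.0646 and Hdac6 -0.0331 to 0.0717. In the effect of Ogg1-/- in NeuN+ minus effect in NeuN-, Hdac3 -0.0299 to 0.0062, Hdac5 -0.0629 to 0.0608, Hdac7 -0.0145 to 0.0698 and Hdac9 -0.137 to 0.0365. In the effect of DKO in NeuN+ minus effect in NeuN-, Hdac4 -0.131 to 0.0805.

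The replicate block changed no count of members called: it gave 2, 2, 2 and 1 between the cell types and 0 elsewhere. Same-numbered libraries of the 2 cell types deviated together (r over 0.1) in 8 of 12 pairs (mean r 0.16, lowest 0.002). Differently numbered ones did so in 1 of 24 (mean r -0.08). Between genotypes, same-numbered libraries did so in 6 of 18 pairs of NeuN+ and 7 of 18 of NeuN-. Differently numbered ones did so in 6 of 36 and 10 of 36. Same-numbered NeuN+ and NeuN- libraries thus went together more often than others. The main fits did not take the numbers as pairs, and the replicate block gives the calls between cell types with them as pairs. With the block, Hdac1 in the added comparison had an adjusted p of 0.0675. Other scaling factors moved the median of all genes by at most 0.021. The members had at least 737 counts in every library.
Calls over all genes, as reported, were 129, 173 and 91 in Mutyh-/-, Ogg1-/- and DKO of NeuN+, and other settings gave 113 to 625, 172 to 332 and 89 to 275, or 62 to 837, 70 to 164 and 36 to 137 with a library left out. In NeuN- they were 87, 73 and 37, with 70 to 239, 73 to 179 and 10 to 178, or 31 to 435, 50 to 74 and 19 to 55. For the effects between cell types they were 7, 17 and 19, with 7 to 59, 15 to 39 and 17 to 107, or 2 to 82, 11 to 16 and 7 to 98. Between the cell types of WT they were 14371, with 8615 to 24259, or 14181 to 14454.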
